A study of Mus musculus with 17 samples.

Results

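The secreted antagonists of Wnt signaling examined here were Sfrp1, Sfrp2, Sfrp4, Sfrp5, Frzb, Wif1, Dkk1, Dkk2, Dkk3 and Dkk4. They were picked by name, as probes whose gene name or RefSeq transcript in the scanner files is one of these genes, which gave 10 genes with 12 probes of 28786 genes with 41174 probes on the array. Their levels were measured in epithelial cells cut by laser from 17 mammary tumors of FVB mice that carried a p75-CUX1 (9 tumors) or p110-CUX1 (8 tumors) transgene under the mouse mammary tumor virus promoter, which drives expression in mammary epithelium. Every tumor carried a transgene, so no tumor without one and no normal gland was compared. By histology there were 4 adenosquamous carcinomas, all p75, 9 solid carcinomas (3 p75 and 6 p110), 2 adenomyoepitheliomas, 1 adenocarcinoma and 1 adenoma. The study also drew 3 clusters of tumors from the Wnt ligand genes on these same arrays, named high-Wnt (5 tumors), medium-Wnt (5) and low-Wnt (7), and none of the 10 antagonists was among the genes that drew them. The labels do not give the cluster of a tumor, so membership was read by eye from the boxes and tumor names of the study's heatmap, and every high-Wnt against low-Wnt value rests on that reading. Nothing in the labels says that tumors came from separate litters, so the tests measure the spread between these tumors.

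Wnt ligands bind a Frizzled receptor and its co-receptor Lrp5 or Lrp6 at the cell surface and thereby stabilize beta-catenin. Antagonists released by cells act at either level. Sfrp1, Sfrp2, Sfrp4, Sfrp5 and Frzb (also called Sfrp3) carry a domain like the ligand-binding part of Frizzled and capture ligand, as does Wif1. Dkk1, Dkk2 and Dkk4 act on the co-receptor, and Dkk3 is a distant relative of them. Some of these genes, Dkk1 and Wif1 among them, are also known as targets of beta-catenin in several tissues, and loss of Sfrp1 is frequent in human breast cancer.

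Each tumor was hybridized on 2 arrays with swapped dyes, or on 4 for p110-143 and p110-360, against amplified universal mouse reference RNA. Values are log2 ratios of tumor over reference, averaged over the arrays of a tumor. A gene is called measured in a tumor if each of its arrays flagged the spot of the tumor's dye as clearly brighter than the local background. Such spots made up 20.9% of probes in p110-374, the fewest, and 65% in p75-129, the most. In p110-98, p110-225 and p110-374 the reference was 8.23 to 11.5 times as bright as the tumor at the 95th percentile of signals, against 0.646 to 3.95 times in the other 14 tumors, and results that rest on these 3 are given without them too. All p75 tumors were scanned in one year and all p110 tumors in the other, so the transgene and the year of the scan cannot be told apart. All 9 fibroblast markers were looked for as a check of the epithelial label, and 7 to 9 of them were measured in every tumor, with a mean log2 ratio from -4.08 in p110-416 to 1.10 in p110-225. The 5 adipocyte markers had a mean log2 ratio of 5.46 in p75-101, 5.04 in p110-225, 4.9 in p110-143, 4.01 in p110-360 and 3.84 in p75-150. In the other tumors this mean ran from -0.05 in p75-216 to 2.3 in p75-80. The part of adipocyte RNA in the antagonist values was not tested. Of 7 squamous markers, 6 were measured in the adenosquamous carcinomas p75-80 and p75-94, and also in the solid carcinoma p75-129, but 3 in p75-47 and 2 in p75-101. The solid carcinoma p110-121 went against its epithelial label. Only 2 of 9 luminal markers were measured in it, with Epcam (-0.27) and Cdh1 (-0.12) at background and a mean log2 ratio of -1.56, against 6 to 9 markers and means of 1.04 to 3.82 in the other 16 tumors. All 6 immune markers were measured there, with a mean of 2.03, against -1.46 to 0.03 in the others, so the differences between histologies and between transgenes that are given for single antagonists are also given without it. It lies in the medium-Wnt cluster and enters no high-Wnt or low-Wnt mean.

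The antagonists differed in how often they could be seen at all. Of the 17 tumors, Sfrp2 was measured in 13, Sfrp1 and Dkk3 in 12, Sfrp5 in 10, Sfrp4 in 9, Wif1 in 7, Dkk2 in 4, Frzb and Dkk1 in 2 and Dkk4 in 0. Between 0 and 8 of the 10 genes were measured in a single tumor. None was measured in p110-98 and p110-374, and 8 were measured in p110-314. The reference color was above background on all 38 arrays for Sfrp2, Sfrp4 and Dkk3, on 36 for Sfrp5 and on 15 for Sfrp1, but on 5 for Dkk2, on 1 for Wif1 and for Dkk1, and on 0 for Frzb and Dkk4. Where both colors lie at background a ratio stays near 0 whatever the level, so a ratio near 0 for Wif1, Dkk1, Dkk2, Frzb or Dkk4 in a tumor where the gene was not measured gives no level. No spot of the 12 probes was saturated in a tumor. The bulk samples cannot tell fewer cells that express a gene from less RNA in each cell.

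**Figure D1:**
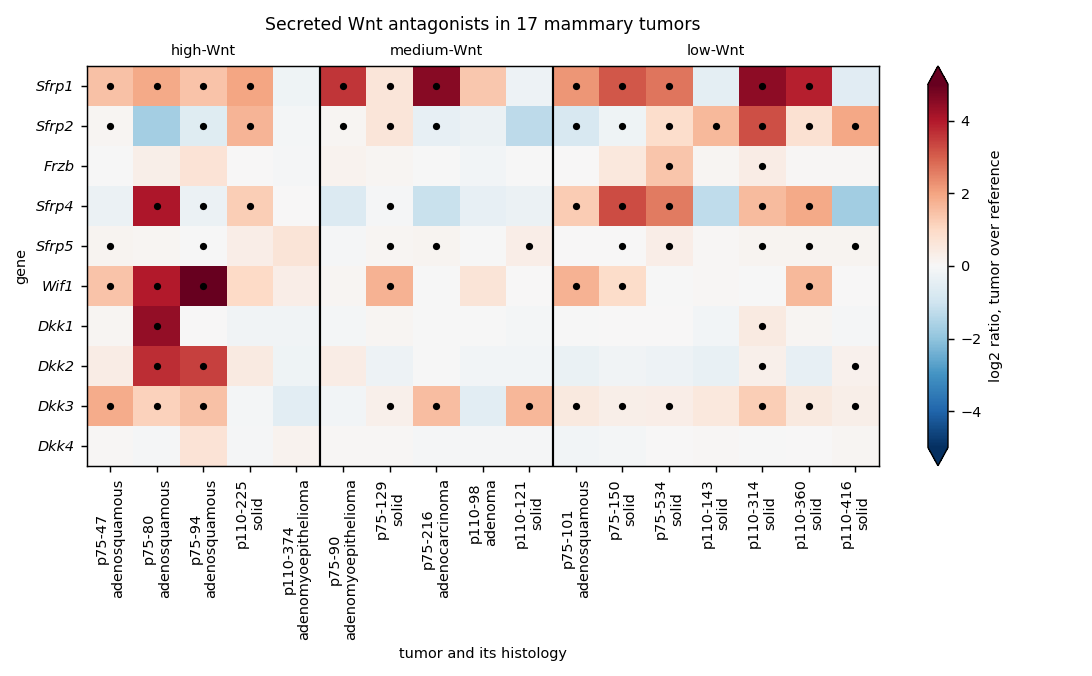
Log2 ratio of tumor over reference for the 10 antagonists (rows) in 17 tumors (columns, grouped by Wnt cluster and named with their histology), with the color scale running from -5 to 5. Black dots mark tumors in which the gene was measured. The deepest red for Wif1 and Dkk2 lies in p75-80 and p75-94 and that for Dkk1 in p75-80 alone, while Sfrp1 peaks at 4.56 in the medium-Wnt, 4.45 in the low-Wnt and 1.99 in the high-Wnt tumors.

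Sfrp1, which binds Wnt ligands and Frizzled receptors, was measured in all 9 p75 tumors and in 3 of 8 p110 tumors. The p110 tumors without it measured include the dim tumors p110-98 and p110-374, where 23.1% and 20.9% of all probes were above background. Its log2 ratio was 4.56 in the adenocarcinoma p75-216 and 3.58 in p75-90, with 4.45 and 3.89 in the solid carcinomas p110-314 and p110-360, and fell to -0.55 in p110-416, -0.49 in p110-143, -0.25 in p110-121 and -0.23 in p110-374. In the p75 tumors it ran from 0.61 through a median of 2.21 to 4.56, and in the p110 tumors from -0.55 through 0.55 to 4.45. The groups overlapped, and the difference of 1.13 (SE 0.77) had an adjusted p of 0.562 in the limma fit over all genes. Without p110-121 it was 0.91, and between adenosquamous and solid carcinomas Sfrp1 differed by 0.04 with all tumors and by -0.21 without p110-121. High values and values at background stood side by side within 1 cluster, since the low-Wnt tumors held both p110-314 and p110-416. The second Sfrp1 probe, which lies at chr8:22233645-22233704 of mm7, the build named in the files, was measured in 2 tumors and spanned only -0.11 to 0.54, whereas the probe used here lies at chr8:22232957-22233016. The array design was not matched to an annotation of that build, so whether these probes lie in a UTR was not analysed here.

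Sfrp2, another ligand-binding member that fibroblasts are known to secrete, had its highest log2 ratios in p110 solid carcinomas, at 3.23 in p110-314, 1.91 in p110-416, 1.69 in p110-225 and 1.62 in p110-143. In the 4 adenosquamous carcinomas it was 0.08 in p75-47, -0.61 in p75-94, -0.81 in p75-101 and -1.69 in p75-80, where it was not measured. In the 9 solid carcinomas it ran from -1.33 through a median of 0.86 to 3.23, so that the groups overlapped. The difference of -1.78 (SE 0.65) had an exact two-sided permutation p of 0.0308, where the smallest possible is 0.0014, and an adjusted p of 0.875 in the limma fit. Its lowest solid value was that of p110-121, and without this tumor the difference was -2.07 with an adjusted p of 0.832. Within the p75 tumors the difference was -1.18, with an exact permutation p of 0.0857 for 4 against 3 tumors, where the smallest possible is 0.0286. Between the transgenes Sfrp2 was lower in p75, with a difference of -1.16 (SE 0.54; adjusted p of 0.347 by limma), and of -0.89 among the solid carcinomas alone (adjusted p of 0.906 by limma), or -1.42 among these without p110-121 (adjusted p of 0.861). With median centering in place of loess it was only -0.12 (adjusted p of 0.906 by limma), so its size rests on the scaling. In p110-416, which held the lowest fibroblast markers, Sfrp2 stood at 1.91, and its Pearson r with the mean of the fibroblast list over the 17 tumors was -0.21 (Spearman rho -0.18), and 0.0069 without p110-314 and p110-416. The part of fibroblast RNA in its values was not tested.

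Sfrp4 was measured in 9 tumors and reached a log2 ratio of 4.03 in p75-80, 3.27 in p75-150, 2.60 in p75-534, 1.89 in p110-360 and 1.56 in p110-314. Its lowest value was -1.73 in p110-416, followed by -1.27 in p110-143 and -1.09 in p75-216, and none of these 3 tumors was measured. Adenosquamous carcinomas (1.18 ± 2.04, SD, n = 4) and solid carcinomas (0.80 ± 1.73, SD, n = 9) overlapped almost fully, with an exact permutation p of 0.739. The difference of 0.38 was 0.25 without p110-121, but -0.57 without p75-80 and -0.75 within the p75 tumors, so its direction did not hold. Of the 10 antagonists Sfrp4 had the highest correlation with the mean of the fibroblast markers over the 17 tumors, with a Pearson r of 0.59 and a Spearman rho of 0.65. The part of fibroblast RNA in its values was not tested. Sfrp5 kept within -0.07 to 0.64 in all 17 tumors, and its SD between tumors, 0.18, was no larger than that between arrays of the same tumor, 0.19. Frzb was measured in p75-534 (1.39) and p110-314 (0.38), both low-Wnt solid carcinomas, and no tumor of the high-Wnt cluster had it above background.

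Wif1, which binds Wnt ligands through its own WIF domain, was measured in all 4 adenosquamous carcinomas and in 3 of 9 solid carcinomas. All 4 adenosquamous carcinomas had it above background on every array, with log2 ratios of 4.98 in p75-94, 3.96 in p75-80, 1.76 in p75-101 and 1.42 in p75-47. In the 9 solid carcinomas it ran from -0.03 through a median of 0.08 to 1.73, and the 3 in which it was measured were p75-129 at 1.73, p110-360 at 1.63 and p75-150 at 0.93. None of the other 4 tumors had it measured. The lowest adenosquamous value lay below the 2 highest solid values, so the groups overlapped by those tumors. The difference of 2.44 (SE 0.60) had an exact permutation p of 0.00559 and an unadjusted p of 0.00134 in the limma fit, but an adjusted p of 0.729 over all genes, so that it did not pass the test. Since 6 of the 9 solid carcinomas did not have Wif1 measured and the reference color stood above background on 1 of 38 arrays, this difference is one of ratios held near 0 by background and does not give the fold between the groups. Within the p75 tumors, where the transgene and the scan year are held fixed, the difference was 2.15 with an exact permutation p of 0.143 for 4 against 3 tumors. Over both transgenes the difference between adenosquamous and solid carcinomas was 1.79 without p75-94 and 2.36 without p110-121 (adjusted p of 0.836 by limma). The dye-swapped arrays gave 4.82 and 5.13 in p75-94 and 3.68 and 4.24 in p75-80. In p75-129, one of the solid carcinomas above the lowest adenosquamous value, they gave 0.93 and 2.52, the widest gap between arrays of a tumor for any antagonist probe. In p110-98 (1.03 and 0.29) and p110-225 (1.27 and 0.71) the first of the 2 arrays was above background and the other was not.

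Dkk1 and Dkk2, whose proteins occupy Lrp5 and Lrp6, lay near background outside a pair of adenosquamous carcinomas. Dkk1 stood at a log2 ratio of 4.38 in p75-80 by the probe at chr19:30245191-30245250 (mm7) and at 7.23 by the probe at chr19:30246086-30246145, and both dye orientations gave it, with 4.38 and 4.39 by the first probe and 6.99 and 7.48 by the second. The reference color was not above background for either probe on these arrays, so neither ratio gives the exact fold. In the other 16 tumors the first probe ran from -0.17 to 0.47 and was measured in 1 of them, p110-314. Dkk2 stood at 3.69 in p75-80 and 3.41 in p75-94, while in the other 15 tumors it ran from -0.40 to 0.43. It was measured in 2 of those 15, p110-314 at 0.24 and p110-416 at 0.22. Thus p75-80 held high Wif1, Dkk1 and Dkk2 together with the highest Sfrp4 and the lowest Sfrp2, while p75-94 held high Wif1 and Dkk2 with Dkk1 at background (0.02). The mean of the 7 squamous markers was also highest in these tumors, at 2.24 in p75-80 and 0.98 in p75-94 against -0.60 to 0.54 in the other 15, and its part in these values was not tested.

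The 250 bases before the start site of Wif1, Dkk1 and Dkk2 are shown because p75-80 held all 3 genes high and p75-94 held Wif1 and Dkk2 high. They are RefSeq sequences of GRCm38.p6, 5′ to 3′ on the strand of the gene. Capitals mark matches on either strand to CTTTGA, a string of core letters that Tcf and Lef factors are known to bind. Only this string was searched, so variants of it with another last letter are neither marked nor counted.
Wif1, chr10:121033754-121034003 (plus strand): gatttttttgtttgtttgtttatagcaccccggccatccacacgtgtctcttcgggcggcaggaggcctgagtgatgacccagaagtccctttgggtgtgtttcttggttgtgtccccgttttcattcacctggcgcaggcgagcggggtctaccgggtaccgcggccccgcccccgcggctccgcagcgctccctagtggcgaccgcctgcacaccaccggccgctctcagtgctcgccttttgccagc
Dkk1, chr19:30549497-30549746 (minus strand): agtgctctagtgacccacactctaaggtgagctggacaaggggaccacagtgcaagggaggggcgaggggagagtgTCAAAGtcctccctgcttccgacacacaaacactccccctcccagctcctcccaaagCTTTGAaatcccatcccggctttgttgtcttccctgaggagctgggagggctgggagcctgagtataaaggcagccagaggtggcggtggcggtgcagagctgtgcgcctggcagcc
Dkk2, chr3:132085042-132085291 (plus strand): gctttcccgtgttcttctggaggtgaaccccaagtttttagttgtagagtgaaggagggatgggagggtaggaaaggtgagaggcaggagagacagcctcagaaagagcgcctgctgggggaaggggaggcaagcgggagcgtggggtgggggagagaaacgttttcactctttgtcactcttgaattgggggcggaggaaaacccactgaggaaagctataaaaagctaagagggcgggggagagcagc
The Dkk1 sequence held 2 matches, at 174 to 169 and at 117 to 112 bases before the start, and those of Wif1 and Dkk2 held 0. Of 32851 promoters of the same length 13.8% held at least 1 match and 1.37% held 2 or more. The table had an entry for 6 of the 10 antagonists, and among the other 3 the Frzb sequence held 1 match and those of Sfrp2 and Sfrp5 held 0. A match is a run of letters and no test of binding, and most of each gene's regulatory sequence lies outside this window.

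**Figure D2:**
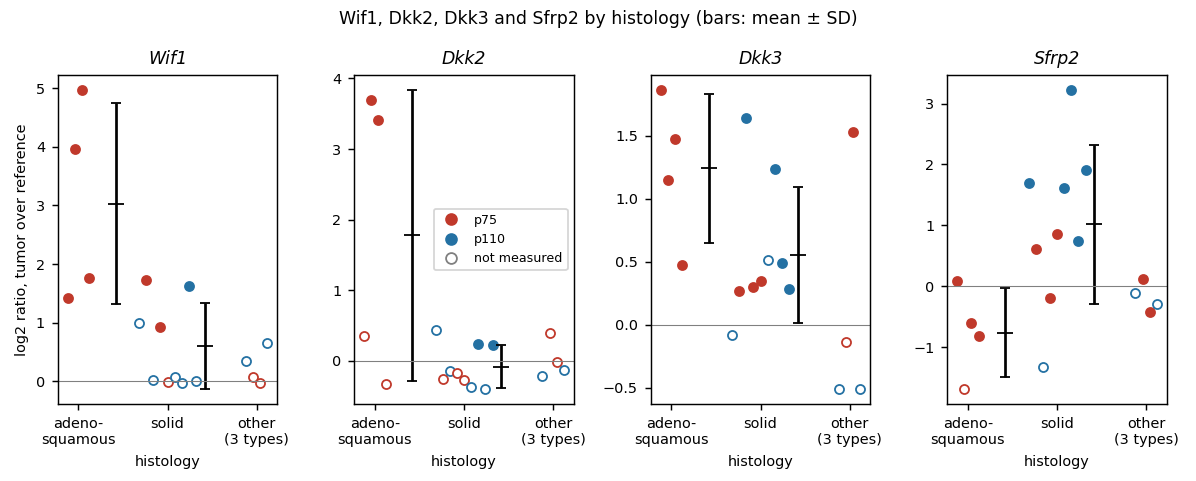
Log2 ratios of Wif1, Dkk2, Dkk3 and Sfrp2 in each tumor by histology, with p75 tumors in red and p110 tumors in blue. Filled points were measured and open points were not, and black bars give the mean and SD of the adenosquamous (n = 4) and solid (n = 9) carcinomas. Wif1 is filled in all 4 adenosquamous carcinomas, and Dkk2 is high in 2 of them.

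In the comparison of histologies, Dkk2 was higher in adenosquamous than in solid carcinomas by 1.86 (SE 0.61), with an exact permutation p of 0.0308 and an adjusted p of 0.875 by limma. Within the p75 tumors the difference was 2.01 with an exact permutation p of 0.257 for 4 against 3 tumors. The mean rested on p75-80 and p75-94, since p75-47 (0.36) and p75-101 (-0.33) lay within the range of the solid carcinomas, -0.40 to 0.43, and the difference was 1.22 without p75-80. Without p110-121 the Dkk2 difference was 1.85 and that of Dkk3, 0.69 (SE 0.31) with all tumors, was 0.82 (adjusted p of 0.86 by limma for both). The Dkk1 difference of 1.09 (SE 0.63) came from p75-80 and was 0.01 without that tumor and 1.08 without p110-121. Of the 10 antagonists, 0 passed an adjusted p of 0.05, as did 0 of the 28786 genes on the array (0%). At an unadjusted p under 0.05 by limma stood 4 antagonists, Wif1, Dkk2 and Dkk3 higher and Sfrp2 lower, against 1581 of all genes (5.49%). The exact permutation p of Dkk3 was 0.0727. The groups did not overlap for 0 of the 10, against 0.406% of all genes. Their median difference was 0.26, against -0.01 over all genes.

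Between high-Wnt and low-Wnt tumors the same Dickkopf gene gave the lowest p among the 10. Dkk2 was 3.69 in p75-80, 3.41 in p75-94, 0.43 in p110-225, 0.36 in p75-47 and -0.22 in p110-374, and it ran from -0.40 through a median of -0.27 to 0.24 in the 7 low-Wnt tumors. The difference was 1.69 (SE 0.57), with an exact permutation p of 0.00758, where the smallest possible is 0.00126, and an adjusted p of 0.231 in the limma fit. Dkk2 was measured in 2 of the 5 high-Wnt and 2 of the 7 low-Wnt tumors, so most of these ratios give no level, and the difference rests on p75-80 and p75-94. The groups overlapped at p110-374, 1 of the 3 tumors with the dim tumor color. Without those 3 tumors the difference was 2.64 with an adjusted p of 0.119 by limma. The high-Wnt tumors left in that fit, p75-47, p75-80 and p75-94, are all p75 adenosquamous carcinomas, while the low-Wnt tumors hold both transgenes. Cluster is then mixed with transgene, scan year and histology, here and in every high-Wnt against low-Wnt fit without the 3 dim tumors. Wif1 differed by 1.72 (SE 0.71; adjusted p of 0.338 by limma), from 0.35 to 4.98 in the high-Wnt and from -0.03 to 1.76 in the low-Wnt tumors, by 2.83 without the 3 dim tumors (adjusted p of 0.203 by limma) and by 1.06 without p75-94 (adjusted p of 0.536 by limma). Of the antagonists 0 of 10 were called, against 67 of all genes (0.233%), and 2, Wif1 and Dkk2, were higher at an unadjusted p under 0.05 by limma, against 6.64% of all genes. The exact permutation p of Wif1 was 0.0568. For none of the 10 did the groups keep apart, against 1.70% of all genes. The clusters were drawn from ligand genes on these arrays, so ligand and antagonist values share every library.

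Between p75 and p110 tumors 0 of the 10 antagonists were called, against 147 of all genes (0.511%). Sfrp2 alone had an unadjusted p under 0.05 (0.0456 by limma), against 13.8% of all genes, and this p was 0.864 with median centering. The exact permutation p of Sfrp2 was 0.0539. The groups overlapped for all 10, with 0.182% of all genes keeping apart. Wif1 was measured in 6 of 9 p75 tumors and in 1 of 8 p110 tumors, with a difference of 1.18 (SE 0.63; adjusted p of 0.44 by limma). It was 1.30 without the 3 dim tumors, which are all p110, and 0.77 without p75-94. Without p110-121 the difference was -1.49 for Sfrp2 (adjusted p of 0.202 by limma), 1.12 for Wif1, 0.79 for Dkk2 and 0.61 for Dkk3, against 0.80 and 0.43 with all tumors. The Dkk2 difference was 0.44 without p75-80, and the Dkk3 difference turned to -0.02 without the 3 dim tumors. Among the solid carcinomas alone the Wif1 difference was 0.43, while those of Dkk2 (-0.23) and Dkk3 (-0.37) had the other sign. Without p110-121, which held the highest Dkk3 of the solid carcinomas, these were 0.35, -0.25 and -0.18.

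**Figure D3:**
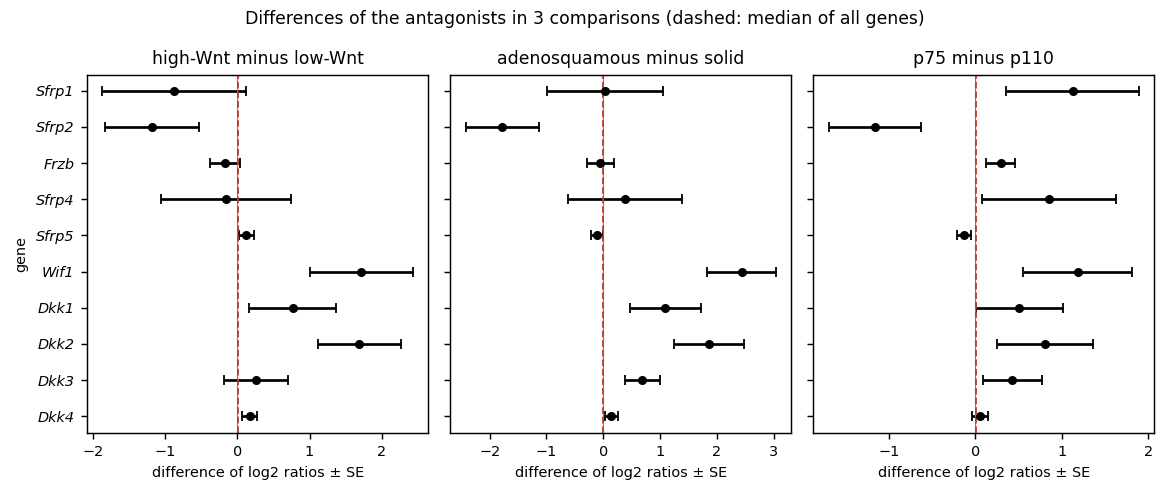
Difference of log2 ratios between groups of tumors for each antagonist (points, with bars of 1 SE of the limma fit) in the 3 comparisons, with the median over all 28786 genes as a dashed line. No difference passed the adjusted threshold. Wif1, Dkk1, Dkk2, Dkk3 and Dkk4 lie right of 0 in each panel and Sfrp2 left of 0. The panels share tumors, so these directions are not independent, and Dkk4 was measured in 0 tumors.

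Dkk3, the divergent Dickkopf whose tie to Wnt signaling differs between tissues, had the lowest p of the 10 antagonists when the high-Wnt against low-Wnt contrast was compared between the transgenes, and did not pass the adjusted threshold. Among p75 tumors it was 1.87, 1.48 and 1.15 in the high-Wnt tumors p75-47, p75-94 and p75-80, and 0.48, 0.35 and 0.30 in the low-Wnt tumors p75-101, p75-534 and p75-150. Among p110 tumors it was -0.08 and -0.51 in the high-Wnt tumors p110-225 and p110-374, and 1.24, 0.51, 0.49 and 0.29 in the low-Wnt tumors p110-314, p110-143, p110-360 and p110-416. The high-Wnt p75 values all lay above and the high-Wnt p110 values all below the low-Wnt values of the same transgene. With so few tumors, 7.45% of all genes also lay wholly above in p75, 12.1% wholly below in p110 and 134 of 28774 genes did both. The contrast was 1.12 in p75 and -0.93 in p110, a difference of 2.05 with an unadjusted p of 0.000347 and an adjusted p of 0.0579 for the interaction term of the limma fit. So 0 of the 10 antagonists passed, against 148 of all genes (0.514%), while at an unadjusted p under 0.05 there were 3, Dkk3, Sfrp5 and Dkk2, against 13.7% of all genes. Neither p110 high-Wnt tumor had Dkk3 measured, both belong to the 3 tumors with the dim tumor color, and no p110 high-Wnt tumor remains without them. Their part in this result was not tested. The adjusted p of Dkk3 passed with median centering in place of loess (0.0436) and without p110-143 (0.0256) or p110-314 (0.0442). Its unadjusted p by limma was higher than in the main fit with median centering (0.000779) and without p110-143 (0.000702), and was 0.000137 without p110-314. Of all genes 736 were called with median centering, against 148 in the main fit. Without p110-374 the Dkk3 difference was 1.84, with p110-225 as the only p110 high-Wnt tumor left. Without p75-47 it was Dkk2 that passed, with a difference of 3.62 (adjusted p of 0.0126 by limma), against 2.56 and an adjusted p of 0.323 with all tumors. That fit leaves p75-80 and p75-94 as the p75 high-Wnt tumors. Dkk2 was not measured in the p110 high-Wnt or the p75 low-Wnt tumors, so those ratios give no level. Without p75-80 its adjusted p was 0.46 by limma. For Dkk3, the 4 adenosquamous carcinomas within the p75 tumors (1.24 ± 0.59, SD) also lay above the 3 solid carcinomas (0.31 ± 0.04, SD) without overlap. The exact permutation p was 0.0571, and 5.07% of all genes kept apart in either direction.

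**Figure D4:**
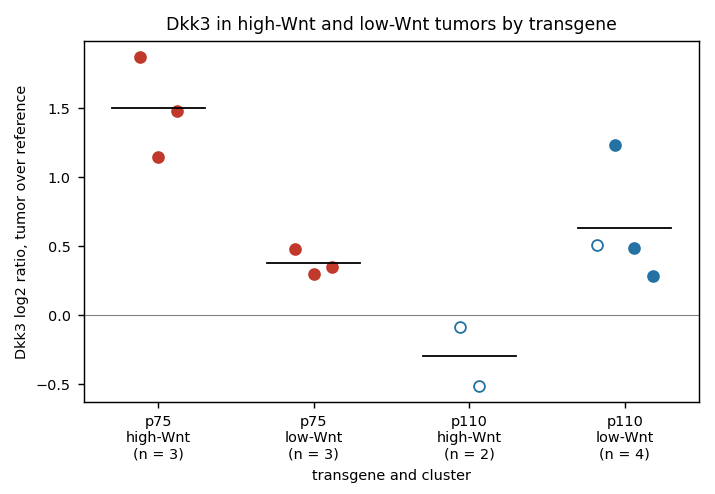
Log2 ratio of Dkk3 in the 12 high-Wnt and low-Wnt tumors by transgene, with a line at each mean. Filled points were measured and open points were not. The 3 high-Wnt p75 tumors lie at 1.15 to 1.87, and the 2 high-Wnt p110 tumors, both open, lie below 0.

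Other inhibitors and target genes of the pathway were set beside the antagonists. Of 16 further inhibitors, 14 were on the array, and 0 were called in any of the 3 comparisons, with a median difference of 0.35 between high-Wnt and low-Wnt tumors (0.02 over all genes). At an unadjusted p under 0.05 in the limma fits, 2 of the 14 were higher in high-Wnt tumors (6.64% of all genes) and 1 was lower (5.40%). The higher genes were Notum, measured in 4 tumors, and Igfbp4, which was measured in 0 tumors and differed by 0.21. At the same unadjusted p 3 stood between histologies (5.49%) and 5 between transgenes (13.8%). Shisa2, of a family that keeps Frizzled receptors from reaching the cell surface, differed by -2.59 between high-Wnt and low-Wnt tumors (SE 1.03; unadjusted p of 0.0236, adjusted p of 0.317 by limma), from 0.94 in p110-374 to 4.02 in p75-80 against 1.49 in p110-416 to 6.89 in p75-534. Without the 3 dim tumors its difference was -2.14 (adjusted p of 0.737 by limma). Kremen1, a membrane receptor of Dickkopf proteins, had the lowest p of the 14 between transgenes, with a difference of -2.11 from p110 to p75 (SE 0.63; unadjusted p of 0.00375, adjusted p of 0.129 by limma) and of -1.07 without the 3 dim tumors (adjusted p of 0.524). With median centering the Kremen1 difference was -0.77 (adjusted p of 0.148 by limma), so its size rests on the scaling. Of the single tumors left out, Kremen1 passed only without p110-314 (adjusted p of 0.0294 by limma), and 49 to 1096 of all genes passed in those fits. Its highest values lay in the dim tumors p110-98 (4.75), p110-374 (4.26) and p110-225 (3.63) and in p110-121 (3.50). Apcdd1, a membrane inhibitor that binds Wnt and Lrp5, was 5.28 in p75-94, 3.97 in p75-80 and 2.24 in p75-47, but -0.78 in p75-101. Notum, a secreted enzyme that removes the lipid from Wnt ligands, was 3.20 in p75-80, 1.62 in p75-94 and 0.95 in p75-47. These values are of p75 tumors alone. Over both transgenes, Apcdd1 differed by 2.52 (SE 1.24) and Notum by 1.11 (SE 0.47) between high-Wnt and low-Wnt tumors (adjusted p of 0.443 and 0.358 by limma). Without the 3 dim tumors they differed by 4.455 and 1.973 (adjusted p of 0.276 and 0.123 by limma). Adenosquamous and solid carcinomas differed by 3.52 and 1.39 (adjusted p of 0.875 by limma for both). Znrf3, a ligase that removes Frizzled receptors from the membrane, was higher in adenosquamous than in solid carcinomas by 1.07 (SE 0.23; unadjusted p of 0.000473, adjusted p of 0.615 by limma). Among 11 target and feedback genes, Lef1 (1.90, adjusted p of 0.0264 by limma) and Tcf7 (1.78, adjusted p of 0.0407), nuclear partners of beta-catenin, rose from the low-Wnt to the high-Wnt cluster, 2 of the 11 against 0.233% of all genes. Lef1 was measured in 3 tumors and Tcf7 in 9. Neither call held with median centering (1.32 and 1.31, adjusted p of 0.682 by limma for both) or with no background correction (1.85 and 1.79, adjusted p of 0.0902 and 0.112 by limma). Without the 3 dim tumors, where all high-Wnt tumors left are p75 adenosquamous carcinomas, they were 2.21 and 2.11 (adjusted p of 0.0358 and 0.0449 by limma). With each tumor left out in turn, 11 of 17 fits kept the call for Lef1 and 6 of 17 for Tcf7. Tcf7l2, another nuclear partner, was measured in all 17 tumors and differed by -1.17 (adjusted p of 0.153 by limma), or by -2.05 with median centering (adjusted p of 0.657). Of the 11 genes 0 were called between histologies or transgenes. At an unadjusted p under 0.05, 6 of the 11 were higher (6.64% of all genes) and 1 was lower (5.40%) in the high-Wnt tumors, and 6 stood between histologies (5.49%) and 2 between transgenes (13.8%). Of 19 ligand genes, Wnt6 and Wnt10a were called higher in the high-Wnt tumors (0.233% of all genes), which these genes helped to define. The main fits called 0 ligands in the other comparisons. Neither call held with median centering (1.10 and 3.60, adjusted p of 0.699 and 0.638 by limma) or with no background correction (1.76 and 4.53, adjusted p of 0.0708 and 0.0902 by limma). With median centering Wnt10a was called higher in p75 than in p110 tumors by 3.25 (adjusted p of 0.0353 by limma), as were 1206 of all genes in either direction. At an unadjusted p under 0.05, 6 of the 19 were higher (6.64% of all genes) and 1 was lower (5.40%) in the high-Wnt tumors. Since the clusters were drawn from the ligand genes, this count is no test of the ligands. Of 16 receptors and 9 agonist genes 0 were called in any comparison, and at an unadjusted p under 0.05 between the clusters each of these lists had 2 genes higher (6.64% of all genes) and 1 lower (5.40%).

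A solid carcinoma of the low-Wnt cluster, p110-416, held the highest log2 ratio of the feedback genes Axin2 (4.73), Nkd1 (5.17) and Rnf43 (4.48) among the 17 tumors, and its Apcdd1 (4.72), Notum (1.04) and Znrf3 (0.68) were measured too. Of the antagonists, Wif1 (0.01), Dkk1 (-0.04), Dkk4 (0.08), Frzb (0.06), Sfrp1 (-0.55) and Sfrp4 (-1.73) were all at background there, and Dkk2 (0.22), Dkk3 (0.29), Sfrp5 (0.14) and Sfrp2 (1.91) were measured. The same 6 genes had no array above background in p110-121, p110-143 and p110-374 as well, so this was not particular to p110-416. Sp5, a target gene, was also at background in p110-416 (-0.07) and high in p75-94 (6.11) and p75-80 (4.12). This tumor was picked after its values were seen, so no test was made of it. Its fibroblast markers were the lowest of all tumors.

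**Figure D5:**
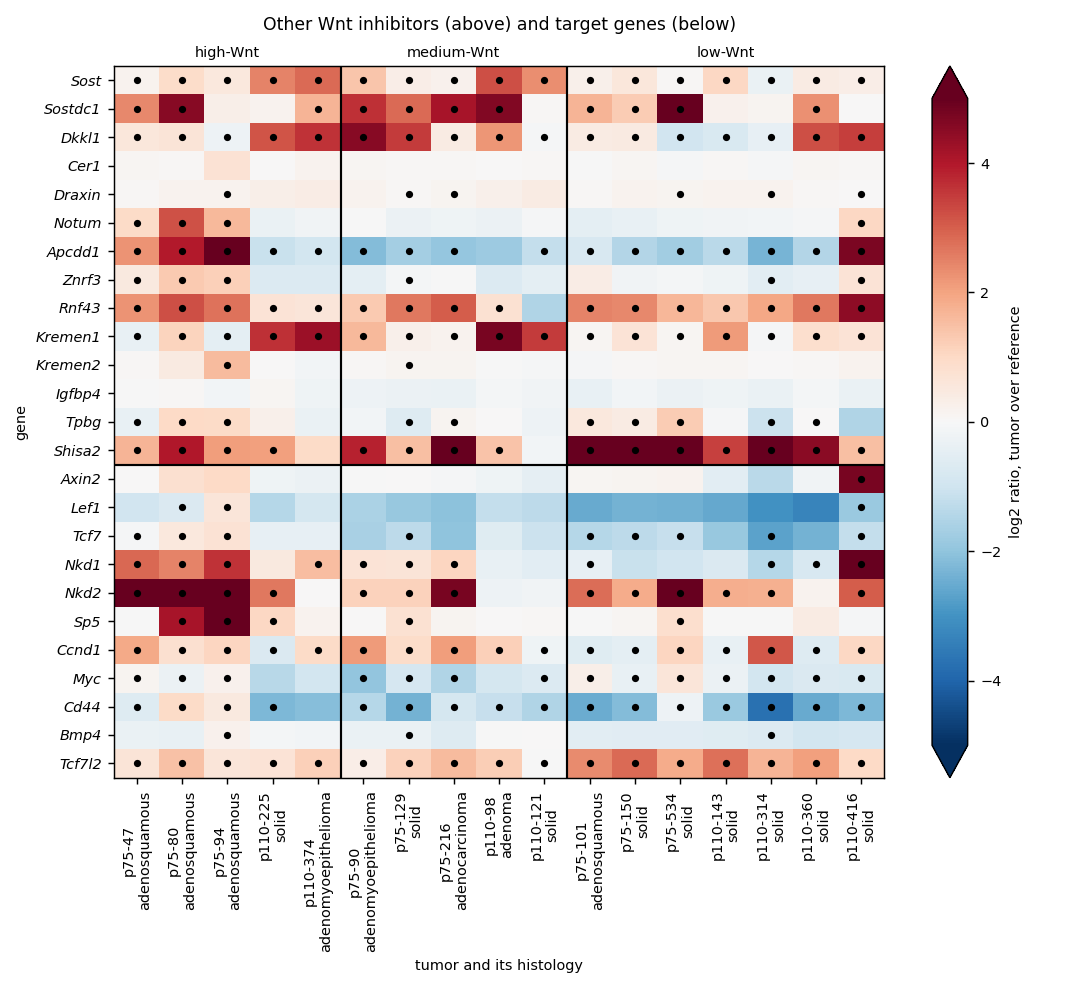
Log2 ratio of tumor over reference for 14 further Wnt inhibitors (above the line) and 11 target and feedback genes (below the line) in the 17 tumors, ordered and marked as for the antagonists, with the color scale from -5 to 5. Apcdd1 and Nkd1 are red with black dots in p75-47, p75-80, p75-94 and p110-416, and Sp5 is strongly red in p75-80 and p75-94.

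Genes whose log2 ratios ran most like those of an antagonist were sought over the 17 tumors among 13700 genes measured in at least 5 tumors, as a description. For Wif1 they were Sp5 (Pearson r of 0.89), Sox7 (0.88) and Idi2 (0.88). These likenesses rested on p75-94 and p75-80, since without that pair r was 0.25 for Sp5, 0.52 for Sox7 and 0.39 for Idi2. For Sfrp1 they were Fndc5 (0.82), Trim21 (0.82) and Herc5 (0.78), and r stayed between 0.70 and 0.76 without its 2 most distant tumors. For Dkk3, Sh3kbp1 (0.85), Ttyh3 (0.81) and 2310022A10Rik (0.79) kept r from 0.78 to 0.83 in the same way. For Sfrp2 they were Ptges2 (0.83), 5730407K14Rik (0.82) and 2310057J18Rik (0.79), with r of 0.65, 0.73 and 0.78 without p110-314 and p110-416. For Sfrp4 they were Meox1 (0.76), Nfatc2ip (0.75) and Rspo1 (0.74), a secreted agonist that raises Wnt signaling through Lgr receptors, with r of 0.60, 0.75 and 0.63 without p75-80 and p75-150. For Sfrp5, which varied no more between tumors than between arrays, they were Vwa5b2 (0.89), Olfr1134 (0.88) and Sema4d (0.82), with r of 0.64, 0.67 and 0.52 without p110-374 and p110-225. All points share libraries and reference, and with so many genes compared a high r somewhere carries no weight of its own.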

How the data were processed

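The authors amplified RNA from laser-captured epithelial cells of 17 tumors through 2 rounds and hybridized it on 2-color Agilent arrays. The deposited scanner files hold intensity values, mean and background, measured by the authors with Feature Extraction 9.5.3.1 and not normalized. The authors also deposited a table of log2 ratios (tumor against reference), which the same background correction, loess and averaging gave within 4.98e-08 when all spots were kept.

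Intensities were corrected by normexp (offset 50) and loess within each array in R 4.3.3 with limma 3.58.1 (statmod 1.5.0 for random blocks), leaving out controls and outlier spots (0.545%). Spots of a probe and arrays of a tumor were averaged, and the brightest probe stood for a gene. RefSeq accessions named 22951 of 41174 probes (55.7%), and the others kept the name in the files. Groups were compared with lmFit and eBayes over 28786 genes (Benjamini-Hochberg, threshold 0.05), single genes also by exact two-sided permutation of the difference in means. The scripts were tested on simulated data. The number of arrays limits the precision, since few replicates and weak signals widen every error. Figures were drawn with matplotlib 3.10.9.

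All 10 antagonists were to be named. From the lists of inhibitors, ligands, receptors, agonists and targets the called genes were to be named, and for antagonists measured in at least 5 tumors the 3 genes most like them. Other genes (Apcdd1, Notum, Shisa2, Kremen1, Znrf3, Igfbp4, Tcf7l2, Axin2, Nkd1, Rnf43 and Sp5) and the alternatives of scan day, the 3 dim tumors, the tumor color alone and those tried on genes of the other lists were chosen after seeing the data. The antagonists and lists were chosen with earlier results of these data known. Clusters are the study's grouping by ligand genes, and each tumor's cluster was read by eye from the heatmap, not from the labels. Alternatives included the deposited table, no background correction, median centering, a filter on dim probes, the mean of all probes, single dye orientations, robust and trended eBayes, blocks and each tumor left out.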

Additional observations from a re-analysis of the deposited data

Results flagged for a closer look

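Single tumors that stood far from the rest of their group were sought in 70 groups of 4 to 10 tumors (10 antagonists in 7 groups each), of which chance alone would give about 1 in 20, and 15 were found. They are counts of few tumors seen again in overlapping groups.

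Dkk1 in p75-80 (4.38) was far from the other high-Wnt tumors (next 0.09), the other adenosquamous carcinomas and the other p75 tumors (next 0.11). Dkk1 in p110-314 (0.47) was far from the other low-Wnt and p110 tumors (next 0.10) and the other solid carcinomas (next 0.11), though its arrays gave 0.84 and 0.09. Frzb in p75-534 (1.39) was far from the other low-Wnt tumors and solid carcinomas (next 0.52) and the other p75 tumors (next 0.67), and Frzb in p110-314 (0.38, from arrays at 0.66 and 0.10) from the other p110 tumors (next 0.08). Sfrp5 in p75-534 (0.31) was far from the other low-Wnt tumors (next 0.14) and p75 tumors (next 0.12). Dkk3 in p110-314 (1.24) was far from the other low-Wnt tumors (next 0.51). Sfrp1 in p110-374 (-0.23) was far below the other high-Wnt tumors (next 1.42), in a tumor where it was not measured. Dkk4 in p75-94 (0.69) was far from the other p75 tumors (next 0.07) and was not measured there either.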

How the results depend on the processing

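No antagonist was called in the 3 comparisons in the main fits, under any alternative or without any single tumor (0 throughout), so leaving out each tumor gave counts from 0 to 0. For the difference of the high-Wnt against low-Wnt contrast between transgenes the count was 0 in the main fit, 1 (Dkk3) with median centering in place of loess, and 0 to 1 with each tumor left out (Dkk3 without p110-143 or p110-314, Dkk2 without p75-47). The number of all genes called moved far more. Between high-Wnt and low-Wnt tumors it was 67 in the main fit, 0 with median centering or no background correction, 143 with the high-Wnt and low-Wnt tumors alone, and 7 to 141 with each tumor left out. Between the transgenes it was 147, but 1206 with median centering, 1757 from the tumor color alone and 0 in the solid carcinomas alone, with 49 to 1096 with each tumor left out. For the contrast between transgenes it was 148, but 736 with median centering, 0 with the tumor in Cy5 alone, and 0 to 1354 with each of the 12 tumors left out. Between histologies it was 0, and 0 to 31 with each tumor left out. Of 412 values of single antagonists under other alternatives 389 kept their direction and their side of the threshold and 22 turned sign, none of them past the threshold on either side.

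For Sfrp1 between adenosquamous and solid carcinomas (0.04 in the main fit) they were -0.021 with no background correction, -0.0085 with the mean of all probes, -0.064 with the tumor in Cy3 alone, -0.81 with the transgene as a block, -0.0053 with the slide and -0.069 with the scan day as a random block, and -0.38 in the p75 tumors alone. In the same comparison Sfrp4 was -0.44 with the transgene as a block and -0.75 in the p75 tumors alone, Sfrp5 was 0.0048 with the transgene as a block and 0.27 from the tumor color alone, and Frzb was 0.051 with the tumor in Cy5 alone. Median centering turned Sfrp5 to -0.20 between high-Wnt and low-Wnt and to 0.28 between p75 and p110 tumors, and Dkk4 to -0.13 between p75 and p110. Between the transgenes, Dkk4 was -0.053 with the tumor in Cy5 alone, Sfrp5 was 0.26 from the tumor color alone, and Dkk2 and Dkk3 (0.80 and 0.43 in the main fit) were -0.23 and -0.37 in the solid carcinomas alone. Counted apart from these, the solid carcinomas without p110-121 turned Dkk2 to -0.25, Dkk3 to -0.18 and Dkk4 to -0.0075. Without p110-98, p110-225 and p110-374, Sfrp4 was 0.060 and Sfrp5 -0.044 between high-Wnt and low-Wnt tumors, and Dkk3 was -0.024 between the transgenes. The cause was not tested for any of them.

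With each tumor left out, 20 of 534 values changed direction. Between high-Wnt and low-Wnt tumors Frzb ran from -0.29 to 0.0019, Sfrp4 from -0.93 to 0.21, Dkk1 from -0.12 to 1.02 and Dkk3 from -0.014 to 0.58. Between the histologies Sfrp1 ran from -0.25 to 0.38, Frzb from -0.19 to 0.088, Sfrp4 from -0.57 to 0.87 and Dkk4 from -0.043 to 0.24, and between the transgenes Dkk4 ran from -0.027 to 0.077. Signal over background limited Wif1, Dkk1, Dkk2, Frzb and Dkk4 most, since their reference color was above background on at most 5 of 38 arrays. No paired analysis was possible because no mouse number of the labels occurs in more than one group, and the slides and scan days that some tumors shared entered only as random blocks.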
